A study of Mus musculus with 6 samples.

Results

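Integrins are adhesion receptors of the cell surface, each made of an α chain and a β chain. The 9 integrin genes described here, *Itgb7*, *Itga4*, *Itga5*, *Itga6*, *Itga9*, *Itgal*, *Itgav*, *Itgb1*, and *Itgb2*, were chosen by symbol as chains through which hematopoietic stem cells (HSCs) attach to their surroundings. The choice was made with earlier results of these data known. All 9 were among the 26264 genes of the deposited table and among the 17404 genes that were tested. Bulk RNA-seq had been performed on HSCs of the bone marrow, sorted as Lineage-Sca1+cKit+ cells with CD150 and without CD48, from 3 wild-type (WT) C57Bl/6 mice and 3 *Irf1-/-* mice (B6.129S2-Irf1 tm1Mak/J), with 1 library per mouse. All mice were untreated, female, and 8 weeks old. IRF1 is absent from the whole body of *Irf1-/-* mice, so a difference in HSCs can arise in these cells or in their environment.

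The α and β chains of an integrin are joined in the endoplasmic reticulum before they reach the surface, and a β chain that can pair with several α chains sets which receptors a cell carries. The β1 chain forms the receptors for fibronectin and laminin and pairs with α4, α5, α6, α9, and αv. The β7 chain shares α4 with β1, and the resulting α4β7 is best known as the receptor by which lymphocytes enter the gut through MAdCAM-1. In the bone marrow, binding of α4 integrins to VCAM-1 helps to hold HSCs in place and to bring them back after transplantation. The β2 chain is restricted to leukocytes and forms LFA-1 with αL, which binds ICAM molecules.

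The files hold read counts per gene divided by 1 factor per library, here called normalized counts. Whole reads could be recovered from them, and these came to 43138521 (replicate 2), 57281017 (replicate 3), and 45129929 (replicate 4) on genes in *Irf1-/-* HSCs and to 59658080, 45332573, and 43267486 in WT HSCs of the same replicate numbers. The numbers 2, 3, and 4 name the libraries in both genotypes. At these depths the lowest value among the 9 integrin genes was 340.5 normalized counts.

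*Irf1*, the targeted gene, had 9267 (replicate 2), 9524 (replicate 3), and 9287 (replicate 4) normalized counts in *Irf1-/-* HSCs and 10122, 11119.6, and 12057.5 in WT HSCs. The *Irf1-/-* libraries lay below all WT libraries, but only slightly, and the gene was not called (log2 fold change −0.24, adjusted *P* = 0.170, limma). Reads were thus still counted on the gene in *Irf1-/-* HSCs. Whether they lie outside the deleted part was not tested, so these counts do not check the genotype labels.

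Markers were read beside the label of the cells. This is only a partial check, since *Kit*, *Ly6a*, and *Slamf1* encode cKit, Sca1, and CD150, on which the cells were sorted. All 7 HSC markers (*Ly6a*, *Kit*, *Slamf1*, *Procr*, *Mecom*, *Hlf*, and *Fgd5*) were counted in every library, with a summed level of 125246, 142148, and 128701 normalized counts in *Irf1-/-* replicates 2, 3, and 4 and 127051, 123397, and 122353 in the WT replicates. *Kit* made up most of this sum. Of these markers *Fgd5* rose, with 6752, 6881, and 6387 normalized counts in *Irf1-/-* HSCs and 3918, 3818, and 3522 in WT HSCs (log2 fold change 0.83, adjusted *P* = 9.13e-05, limma). This call was lost only when limma was fitted without the trend of the variance with intensity (adjusted *P* = 0.0511). Of the 7 markers 6 had an unadjusted *P* under 0.05 in limma, 5 higher and 1 lower, and 5 did not overlap between genotypes (19.9% over all genes tested). Singled out after their values were seen, *Procr* (0.52, adjusted *P* = 0.0112, limma) and *Ly6a* (−0.43, adjusted *P* = 0.0245, limma) differed in opposite directions without being called, but *Procr* was called without WT replicate 2 (0.58). The adjusted *P* of *Ly6a* reached 0.115 with a library left out. *Cd48*, against which the cells were sorted, stayed between 257 and 431 normalized counts in the 6 libraries.

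To ask which integrin transcripts differ without IRF1, limma was fitted to log2(normalized count + 1) for every gene whose normalized counts averaged at least 10. All fold changes set *Irf1-/-* against WT. Genes were called where the Benjamini-Hochberg adjusted *P* was under 0.05 and the log2 fold change exceeded 0.58 in either direction. Of the 9 integrin genes 1, *Itgb7*, was called, where 333 of all genes tested were (1.91%). Because the 9 were chosen with earlier results known, their share does not test them as a set. *Itgb7* was called lower, as were 0.954% of all genes, and 0 of the 9 were called higher, against 0.96% of all genes. At an unadjusted *P* under 0.05 in limma 1 of the 9 was higher and 1 lower, and edgeR and DESeq2 on the recovered reads also called 0 higher and 1 lower. The libraries of the 2 genotypes did not overlap for 2 of the 9 genes, against 19.9% of all genes tested. The median log2 fold change of the 9 was −0.026, beside −0.0028 over all genes tested, and it turned positive without *Irf1-/-* replicate 3 (0.043), *Irf1-/-* replicate 4 (0.017), or WT replicate 3 (0.020), and after quantile normalization (0.047).

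*Itgb7*, which encodes the β7 chain, had 719 (replicate 2), 654 (replicate 3), and 600.02 (replicate 4) normalized counts in *Irf1-/-* HSCs. In WT HSCs it had 1859.8 (replicate 2), 2913 (replicate 3), and 1738 (replicate 4). The highest *Irf1-/-* library was therefore far below the lowest WT library, and the WT mice differed more among themselves than the *Irf1-/-* mice, with WT replicate 3 standing above the rest. On average *Irf1-/-* HSCs had 30.3% of the WT level, so that *Itgb7* fell by 1.69 on the log2 scale (SE 0.17, 95% CI −2.05 to −1.32, adjusted *P* = 7.11e-05, limma). Without WT replicate 3 the log2 fold change was −1.45 and the gene was still called. The call was lost when limma was fitted without the trend of the variance with intensity (adjusted *P* = 0.0858), a fit that called only 7 genes higher and 33 lower among all genes tested. In bulk RNA, fewer cells that carry a transcript and less of it per cell cannot be told apart.

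The β7 chain pairs with α4 and αE, and the genes of both overlapped between genotypes. *Itga4* had 3924 (replicate 2), 3872 (replicate 3), and 4139.95 (replicate 4) normalized counts in *Irf1-/-* HSCs. WT HSCs had 4543, 4093, and 4447, and *Irf1-/-* replicate 4 lay above WT replicate 3. The log2 fold change was −0.13 (95% CI −0.32 to 0.06, adjusted *P* = 0.527, limma). *Itgae*, which encodes αE and was singled out after its values were seen, had 156, 58.8, and 194 normalized counts in *Irf1-/-* HSCs and 126, 174, and 341 in WT HSCs. It was not called, and its 95% CI was wide (log2 fold change −0.68, −1.62 to 0.25, unadjusted *P* = 0.139, limma). With each library left out its log2 fold change was lowest when *Irf1-/-* replicate 4 was removed (−1.02) and nearest to 0 when *Irf1-/-* replicate 3 was (−0.17). *Itgb1*, whose β1 chain is the other partner of α4, had 21228, 22194, and 19851 normalized counts in *Irf1-/-* HSCs and 21564, 22850.0, and 20015 in WT HSCs. The 2 genotypes were interleaved, with a log2 fold change of −0.03 (95% CI −0.22 to 0.16, adjusted *P* = 0.937, limma).

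Ratios between chains within a library do not depend on how libraries are scaled to each other. Normalized counts of *Itgb7* came to 3.38%, 2.95%, and 3.02% of those of *Itgb1* in *Irf1-/-* replicates 2, 3, and 4 and to 8.62%, 12.7%, and 8.69% in the WT replicates. The *Irf1-/-* libraries were close together and all below the WT libraries, at a difference of −1.66 in the log2 ratio (exact two-sided permutation test, *P* = 0.1, adjusted over 3 ratios 0.15). *Itgb7* came to 18.3%, 16.9%, and 14.5% of *Itga4* in *Irf1-/-* HSCs and to 40.9%, 71.2%, and 39.1% in WT HSCs. This difference was −1.56 in the log2 ratio (exact two-sided permutation test, *P* = 0.1, adjusted 0.15), or −1.28 without WT replicate 3. With 3 mice against 3 the smallest *P* that this test can give is 0.1.

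*Itga9* encodes α9, which pairs with β1 and binds tenascin-C and osteopontin. It had 1239.8 (replicate 2), 995 (replicate 3), and 1198 (replicate 4) normalized counts in *Irf1-/-* HSCs and 716, 779.85, and 867 in WT HSCs. All *Irf1-/-* libraries were above all WT libraries. Its log2 fold change, 0.54 (SE 0.14, adjusted *P* = 0.0481, limma), lay under the fold change threshold, so the gene was not called. It was called without *Irf1-/-* replicate 3 (0.63, adjusted *P* = 0.0370, limma) and without WT replicate 4 (0.61, adjusted *P* = 0.0291, limma). With any other single library left out its adjusted *P* was 0.137 to 0.200. It was also above 0.05 after quantile normalization (0.0588), after median centring (0.0629), with no filter (0.0514), and without the trend (0.252).

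The α chains of the fibronectin, laminin, and vitronectin receptors overlapped between genotypes. *Itga5*, whose α5β1 is the classical fibronectin receptor, ranged from 6441 to 7039 normalized counts in *Irf1-/-* HSCs and from 5842 to 6818 in WT HSCs (log2 fold change 0.09, adjusted *P* = 0.692, limma). Leaving out WT replicate 4 or 2 moved this value to 0.04 or 0.15. *Itga6*, whose α6β1 binds laminin, ranged from 11295 to 11656 and from 11043 to 11495 (0.03, adjusted *P* = 0.921, limma). It was the most even of the 9 genes across mice, and the 95% CI of its log2 fold change was −0.14 to 0.20. *Itgav*, whose αv chain joins several β chains to bind vitronectin and latent TGF-β, ranged from 1390.0 to 2138 and from 1468 to 1679.6 (0.16, adjusted *P* = 0.663, limma). Its *Irf1-/-* libraries enclosed all WT libraries, and leaving out *Irf1-/-* replicate 2 or 4 moved the value to 0.03 or 0.34.

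The chains of LFA-1 varied most between *Irf1-/-* mice. *Itgal* had 968 (replicate 2), 340.5 (replicate 3), and 706 (replicate 4) normalized counts in *Irf1-/-* HSCs and 639, 771, and 959.6 in WT HSCs. *Itgb2* had 2724, 1593, and 2314 in *Irf1-/-* HSCs and 2254, 2866, and 2809.97 in WT HSCs. In both genes *Irf1-/-* replicate 3 was the lowest library, and the other *Irf1-/-* libraries lay within or near the WT range. Neither gene was called (log2 fold changes −0.34 and −0.28, adjusted *P* = 0.644 and 0.442, limma), and without *Irf1-/-* replicate 3 those were 0.09 and −0.07. That of *Itgb2* was −0.45 without *Irf1-/-* replicate 2. *Itgal* came to 35.5%, 21.4%, and 30.5% of *Itgb2* in *Irf1-/-* HSCs and to 28.3%, 26.9%, and 34.2% in WT HSCs, a difference of −0.056 in the log2 ratio (exact two-sided permutation test, *P* = 0.9, adjusted 0.9). The sign turned when *Irf1-/-* replicate 3 (0.15) or WT replicate 4 (0.046) was left out.

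Levels of different genes were compared per kilobase of the longest protein-coding transcript in GENCODE vM1, which is only a guide, since the transcript isoform in use was not measured. In WT HSCs *Itgb1* was highest, at 5629 ± 372 normalized counts per kilobase (SD, *n* = 3), followed by *Itga6* (2624 ± 54.7) and *Itga5* (1437 ± 112). *Itgb2* (889.98 ± 114) and *Itgb7* (812 ± 242) came next and did not differ beyond their spread. *Itga4* (444 ± 24.1) and *Itgav* (226 ± 15.7) followed. *Itgal* (151 ± 30.9) and *Itga9* (112 ± 10.8) were the lowest and lay about as far apart as their spread. In *Irf1-/-* HSCs *Itgb7* stood at 246 ± 22.2 per kilobase, below *Itga4* (405 ± 14.4) and close to *Itgav* (256 ± 54.1). In WT HSCs *Itgb7* had stood above *Itga4* on this scale.

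The table also held 17 other integrin chains, and all were tested. Of these 1 was called higher and 0 lower (0.96% and 0.954% over all genes tested), and 5 did not overlap between genotypes (19.9% over all genes). At an unadjusted *P* under 0.05 in limma 3 were higher and 2 lower, and edgeR and DESeq2 on the recovered reads each called 1 higher and 0 lower. The median log2 fold change of 0.041 was not stable. It ranged from −0.27 (without WT replicate 2) to 0.32 (without *Irf1-/-* replicate 3) and was 0.33 for the 11 chains that averaged at least 50. *Itgb5*, whose β5 chain pairs with αv to bind vitronectin, had 999 (replicate 2), 1294 (replicate 3), and 1005 (replicate 4) normalized counts in *Irf1-/-* HSCs and 483, 585, and 563 in WT HSCs. Every *Irf1-/-* library was well above every WT library, and the gene rose by 1.01 on the log2 scale (SE 0.15, 95% CI 0.69 to 1.33, adjusted *P* = 0.00204, limma). This call was lost only when limma was fitted without the trend (adjusted *P* = 0.103).

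**Figure D1:**
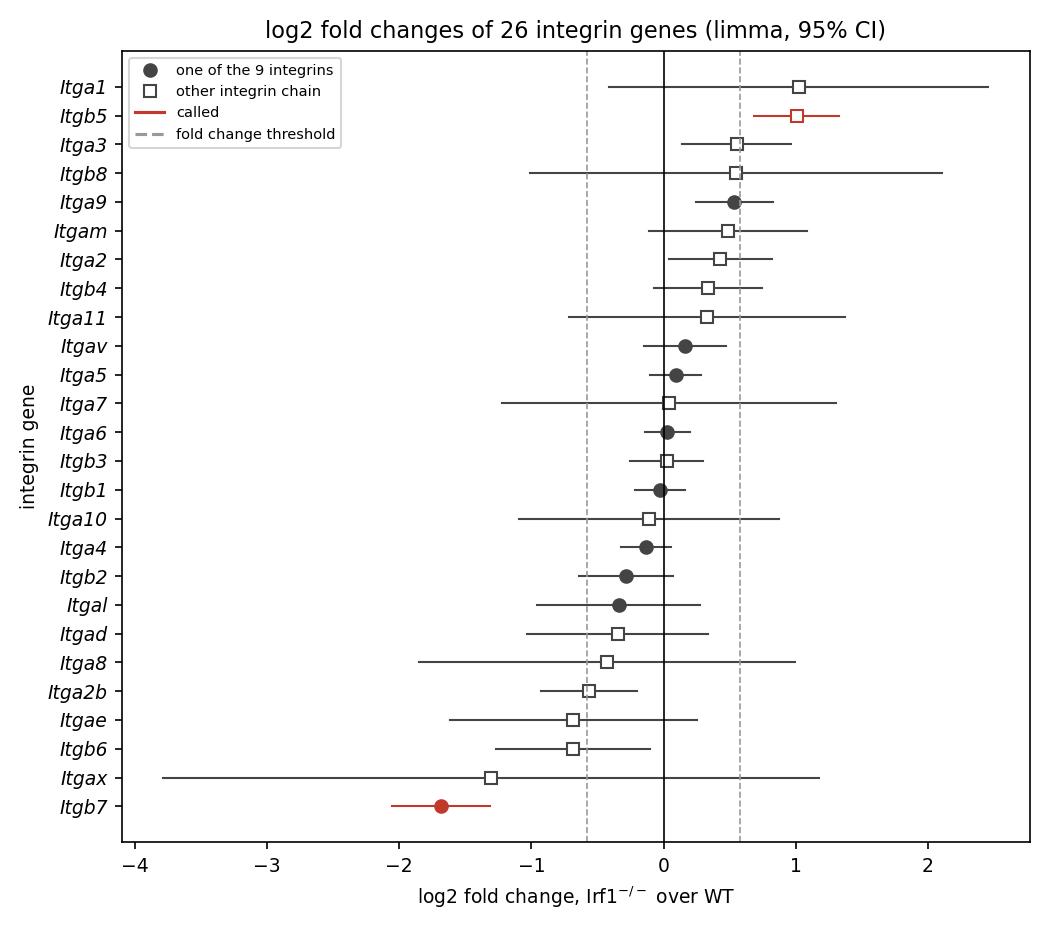
log2 fold changes (*Irf1-/-* over WT) with 95% CIs from limma for 26 integrin genes, with filled circles for the 9 integrin genes and open squares for the other chains. The called genes, *Itgb7* (−1.69) and *Itgb5* (1.01), are in red, and dashed lines mark the fold change threshold of 0.58 in either direction.

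The most abundant of the other chains were *Itga2b* and *Itgb3*, which together form the fibrinogen receptor of platelets and megakaryocytes. *Itga2b* had 30846, 18422, and 26698 normalized counts in *Irf1-/-* replicates 2, 3, and 4 and 33871, 45662, and 31700.4 in the WT replicates. The genotypes did not overlap, with *Irf1-/-* replicate 3 lowest and WT replicate 3 highest, but the gene was not called (log2 fold change −0.56, adjusted *P* = 0.0922, limma). Without WT replicate 4 it was called (−0.67, adjusted *P* = 0.0449, limma), whereas without *Irf1-/-* replicate 3 (−0.35, adjusted *P* = 0.218) or WT replicate 3 (−0.40, adjusted *P* = 0.316) it was further from a call. *Itgb3* overlapped between genotypes, from 6553 to 7701 and from 5901 to 8765 normalized counts (0.02, adjusted *P* = 0.962, limma). Of 6 megakaryocyte markers, among them *Itga2b* as the most abundant, 5 were tested in limma and 2 were called lower (0.954% over all genes tested), *Pf4* (−1.11, adjusted *P* = 0.00334, limma) and *Gp1bb* (−0.90, adjusted *P* = 0.00320). Both calls were lost only without the trend (adjusted *P* = 0.238 and 0.187). The summed level of the 6 markers was 40373, 24769, and 35765 normalized counts in *Irf1-/-* HSCs and 47333, 60307, and 45175 in WT HSCs, and none was at 0 in all libraries. *Itga2b* itself made up most of this sum in every library, so the sum in large part repeats its values. The part of megakaryocyte transcripts in the level of *Itga2b* was not tested.

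Because β7 is also carried by lymphocytes and mast cells, the markers of these cells were read beside *Itgb7*. Of 4 B cell markers 3 passed the filter, and 0 were called by limma (1.91% over all genes tested), edgeR, or DESeq2. In limma 0 of these markers had an unadjusted *P* under 0.05. They summed to 3028, 2826, and 2965 normalized counts in *Irf1-/-* replicates 2, 3, and 4 and 2737, 3016, and 2609.9 in the WT replicates. *Cd79b* made up nearly all of this, while *Cd79a* had at most 35.2 normalized counts in any library. Of 8 T and NK cell markers 5 passed the filter, and 0 were called by the same tools (1.91% over all genes tested in limma). Likewise 0 of these markers had an unadjusted *P* under 0.05 in limma. Their sum was 794, 741, and 1256 in *Irf1-/-* HSCs and 675, 698, and 834 in WT HSCs, with *Klrb1c* the most abundant and *Cd3e* under 8 in every library. Of 8 mast cell and basophil markers 5 passed the filter, and 0 were called by these tools (1.91% over all genes tested in limma). Again, 0 of these markers had an unadjusted *P* under 0.05 in limma. They summed to 39295, 35887, and 38271 in *Irf1-/-* HSCs and 35256, 38881, and 30114 in WT HSCs. *Gata2*, which HSCs themselves express, made up nearly all of this sum, *Cma1* was at 0 in all 6 libraries, and *Tpsb2* was under 2. The cells had been sorted as lineage negative, and the part that any such cells have in the level of *Itgb7* was not tested.

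Of 5 markers of multipotent and lymphoid-primed progenitors 1 was called higher (0.96% over all genes tested), and 1 did not overlap between genotypes (19.9% over all genes). This was *Flt3*, with 3442, 4476, and 3459.99 normalized counts in *Irf1-/-* HSCs against 2656, 1729.9, and 2865 (log2 fold change 0.67, adjusted *P* = 0.0407, limma). It was no longer called without *Irf1-/-* replicate 2 (adjusted *P* = 0.0922), 3 (0.127), or 4 (0.0747) or WT replicate 3 (0.117), or without the trend (0.358). The log2 fold change of *Flt3* was 0.45 to 0.81 with each library left out. *Cd34* was the most abundant of these markers, whose sum was 20431, 26249, and 21334 in *Irf1-/-* HSCs and 19685, 17872, and 20171 in WT HSCs. The 10 cell cycle markers summed to 61523, 64713, and 45937 in *Irf1-/-* HSCs and 89095, 92287, and 67714 in WT HSCs, with *Mcm2* the most abundant and none at 0. Of these, 3 were called lower (0.954% over all genes tested), *Mki67* (−0.67), *Top2a* (−0.77), and *Aurkb* (−0.63). All 10 were lower at an unadjusted *P* under 0.05 in limma, and 7 did not overlap between genotypes (19.9% over all genes), with a median log2 fold change of −0.54. Without *Irf1-/-* replicate 4, WT replicate 2, or WT replicate 3, 0 were called, 9 were still lower at an unadjusted *P* under 0.05 in limma, and the medians were −0.37, −0.47, and −0.47. Without WT replicate 4, 8 were called, and without the trend 0 were called, with 7 at an unadjusted *P* under 0.05. The part of these differences in the level of *Itgb7* was not tested.

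Of 8 granulocyte and monocyte markers 0 were called by limma (1.91% over all genes tested), edgeR, or DESeq2. In limma 1 of these markers had an unadjusted *P* under 0.05. They summed to 34033, 40054, and 37287 normalized counts in *Irf1-/-* replicates 2, 3, and 4 and 29975, 35461, and 35359 in the WT replicates, with *Lyz2* the most abundant and none at 0. Their log2 fold changes were positive for 4 and negative for 4, with a median of −0.026. That median depended on single libraries. It was −0.45 once WT replicate 2 was dropped and 0.48 once WT replicate 4 was. *S100a8* and *S100a9* had 1033 and 1246 normalized counts in WT replicate 4 and at most 110.04 and 131 in any other library (−0.84 and −0.59, adjusted *P* = 0.793 and 0.885, limma). Singled out, like these, after its values were seen, *Prtn3* was the only one of the 8 whose genotypes did not overlap (19.9% over all genes tested). It had 7608, 7801, and 9879 normalized counts against 6255, 4841, and 6445 (log2 fold change 0.53, adjusted *P* = 0.0334, limma). It was called without WT replicate 2 (0.58) or 4 (0.60), while leaving out *Irf1-/-* replicate 2 (0.60) or 4 (0.41) or WT replicate 3 (0.40) gave an adjusted *P* of 0.0619, 0.170, and 0.130. The part of such transcripts in the levels of *Itgal* and *Itgb2* was not tested.

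For other cell types, 3 of 6 erythroid markers were tested in limma and 1 was called lower (0.954% over all genes tested), *Klf1*, with 901, 569, and 924 normalized counts in *Irf1-/-* HSCs and 1396, 1290.4, and 1182 in WT HSCs (log2 fold change −0.72, adjusted *P* = 0.0361, limma). That call was lost without *Irf1-/-* replicate 2 (−0.83), *Irf1-/-* replicate 3 (−0.50), WT replicate 2 (−0.66), or WT replicate 3 (−0.72), and without the trend (adjusted *P* = 0.316). The erythroid markers summed to 2924, 2216.5, and 2731 normalized counts in *Irf1-/-* HSCs and 3705, 3828, and 2995 in WT HSCs. The part of such transcripts in the level of *Itgb7* was not tested. Of 5 dendritic cell markers 0 were called by limma (1.91% over all genes tested), edgeR, or DESeq2. In limma 0 of these markers had an unadjusted *P* under 0.05. Their median log2 fold change of −0.55 ranged from −1.17 (without WT replicate 3) to 0.071 (without *Irf1-/-* replicate 4). These markers summed to only 293, 110, and 138 normalized counts in *Irf1-/-* HSCs and 152, 116, and 303 in WT HSCs, so the median rests on low counts. Of 5 endothelial and stromal markers 0 were called by these tools (1.91% over all genes tested in limma). An unadjusted *P* under 0.05 in limma was found for 1, *Emcn* (0.576, adjusted *P* = 0.0101, limma), singled out after its values were seen. Its log2 fold change lay just under the threshold and passed it without *Irf1-/-* replicate 2 (0.60) or 4 (0.60), without WT replicate 2 (0.61) or 3 (0.61), and after quantile normalization (0.59). *Emcn* had 1280 to 2224 normalized counts in the 6 libraries. *Cdh5*, *Cxcl12*, *Lepr*, and *Col1a1* had at most 29.0, 116, 62.0, and 59.6 in any library. The part of endothelial or stromal cells in the level of *Emcn* was not tested.

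The 5 genes whose profile over the 6 libraries was most like that of *Itgb7*, by the root mean square difference of log2 values centred on each gene's mean, were *Gbp8* (0.23), *Aldh1a1* (0.24), *Tapbpl* (0.24), *Cd86* (0.24), and *A530040E14Rik* (0.29). The first 4 were called lower, which follows in large part from choosing genes with the profile of a gene that fell. *Gbp8*, a guanylate-binding protein gene, had 565, 502, and 587 normalized counts in *Irf1-/-* HSCs and 1524, 1703, and 1522 in WT HSCs (log2 fold change −1.52, adjusted *P* = 8.82e-06, limma). *Gbp8* belongs to a family of similar genes, between which reads could be split. *A530040E14Rik* was not called (−1.25, adjusted *P* = 0.0535, limma). It was called without WT replicate 4 (−1.44, adjusted *P* = 0.0293), after quantile normalization (0.0481) or median centring (0.0454), with the replicate block (0.0486), and by DESeq2 (0.00298).

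In the RefSeq gene order of assembly GRCm38.p6, *Itgb7* lies between *Csad* and *Zfp740* on one side and *Rarg* on the other, and none of these overlaps it. *Zfp740*, the nearest on its side, had 10619, 10008, and 9669.9 normalized counts in *Irf1-/-* HSCs and 9179.6, 9167, and 8884 in WT HSCs. It was thus slightly higher in all *Irf1-/-* libraries, but not called (log2 fold change 0.15, limma). *Csad* (0.13) and *Rarg* (0.15) were not called either, and their libraries overlapped between genotypes. *Gm9918*, the next gene beyond *Rarg*, has no entry in the table.

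IRF proteins bind DNA that carries GAAA, and because the mice lacked IRF1 the promoters were searched for AANNGAAA on both strands, a motif chosen after the expression values were seen. RefSeq promoters (GRCm38.p6, 250 bases before to 50 after the start) were found for 6 of the 9 integrin genes, and not for *Itga6*, *Itgal*, and *Itgb2*. Of these 6, 1 held the motif, that of *Itgav*, where 23.9% of 32851 promoters did. The promoter of *Itgb7*, the gene that fell (chr15:102231886-102232185, − strand), is shown beside that of *Itgav* (chr2:83724147-83724446, + strand), with the motif in capitals on the strand shown or, where it lies on the other strand, as its complement.
Itgb7: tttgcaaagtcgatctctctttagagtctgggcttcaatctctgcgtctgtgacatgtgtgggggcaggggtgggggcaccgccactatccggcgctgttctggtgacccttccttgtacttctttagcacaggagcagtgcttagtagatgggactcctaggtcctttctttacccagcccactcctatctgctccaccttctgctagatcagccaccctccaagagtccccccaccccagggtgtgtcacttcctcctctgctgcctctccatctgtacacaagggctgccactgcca
Itgav: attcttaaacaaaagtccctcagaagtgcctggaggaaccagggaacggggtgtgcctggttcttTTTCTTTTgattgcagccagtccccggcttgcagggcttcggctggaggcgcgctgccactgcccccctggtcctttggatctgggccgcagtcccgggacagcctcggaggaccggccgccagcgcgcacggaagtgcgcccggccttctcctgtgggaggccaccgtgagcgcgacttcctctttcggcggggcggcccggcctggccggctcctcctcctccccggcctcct
The letters of the motif are not in this window of *Itgb7*, which says nothing about binding.

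Many integrins bind their ligands more strongly once they have been activated from inside the cell, where the GTPase Rap1 brings talin to the tail of the β chain and kindlin binds beside it. Of 18 activators and inhibitors of this step, 1 was called lower and 0 higher (0.954% and 0.96% over all genes tested), and 5 did not overlap between genotypes (19.9% over all genes). Their median log2 fold change was −0.029 (−0.058 to 0.0091 with each library left out). At an unadjusted *P* under 0.05 in limma 2 were higher and 2 lower. On the recovered reads edgeR and DESeq2 each called 0 higher and 1 lower, and in limma 1 was called higher without *Irf1-/-* replicate 2. *Rap1b* had 26006, 20721, and 23013 normalized counts in *Irf1-/-* replicates 2, 3, and 4 and 34442, 42995, and 31934 in the WT replicates. No *Irf1-/-* library reached the lowest WT library, and the gene fell by 0.64 on the log2 scale (SE 0.12, adjusted *P* = 0.00894, limma). This is close to the fold change threshold, and the gene was no longer called without *Irf1-/-* replicate 3 (−0.56), without WT replicate 3 (−0.52), after quantile normalization (−0.54), or without the trend (adjusted *P* = 0.247). The most abundant genes of this list were *Fermt3*, which encodes the kindlin of blood cells (−0.15, adjusted *P* = 0.532, limma), and *Tln1*, which encodes talin (0.01, adjusted *P* = 0.985, limma). Without WT replicate 3 the log2 fold change of *Fermt3* was −0.057. The *Tln1* libraries ranged from 41166 to 44266 normalized counts in *Irf1-/-* HSCs and from 40054 to 43455 in WT HSCs.

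Of 25 adaptors and kinases that carry signals from bound integrins into the cell, 24 were tested and 0 were called by limma, edgeR, or DESeq2. In limma 2 had an unadjusted *P* under 0.05, and the median log2 fold change was 0.021 (−0.017 to 0.056 with each library left out). The genotypes did not overlap for 3 of them. Over all genes tested 1.91% were called and 19.9% did not overlap. *Zyx* (0.07, adjusted *P* = 0.782), *Actn4* (−0.16, adjusted *P* = 0.494), and *Parvg* (0.03, adjusted *P* = 0.919), which encode the focal adhesion proteins zyxin, α-actinin-4, and γ-parvin, were the most abundant. Without WT replicate 3 or 4 the log2 fold change of *Actn4* was −0.091 or −0.27. *Lims1*, singled out after its values were seen, encodes the partner PINCH-1 of integrin-linked kinase. It had 7572, 7217, and 7407 normalized counts in *Irf1-/-* HSCs and 10312, 11772, and 9486 in WT HSCs. The genotypes were clearly apart, but the log2 fold change of −0.50 (adjusted *P* = 0.00933, limma) was under the threshold.

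Of 27 ligands, 26 were tested, 1 was called higher and 0 lower (0.96% and 0.954% over all genes tested), and 9 did not overlap between genotypes (19.9% over all genes), with a median log2 fold change of 0.23. This median moved to 0.076 without *Irf1-/-* replicate 2, 0.36 without *Irf1-/-* replicate 3, 0.095 without WT replicate 2, 0.15 without WT replicate 3, and 0.41 without WT replicate 4. At an unadjusted *P* under 0.05 in limma 9 were higher and 2 lower. On the recovered reads edgeR called 1 higher and DESeq2 3, and both called 0 lower. *Lamb2*, which encodes the laminin β2 chain, had 2302, 1484, and 1696 normalized counts in *Irf1-/-* HSCs and 873, 559, and 815 in WT HSCs. It was higher in every *Irf1-/-* library than in any WT library and rose by 1.29 on the log2 scale (SE 0.18, adjusted *P* = 0.00155, limma), a call lost only without the trend (adjusted *P* = 0.185). *Lama5*, singled out after its values were seen, had 470.1, 357, and 364 normalized counts in *Irf1-/-* HSCs and 174, 81.1, and 274 in WT HSCs. It was not called (1.32, adjusted *P* = 0.0551, limma), but was without WT replicate 4 (1.72), with the replicate block, with 2 other settings, and by DESeq2 (1.17). With any other single library left out it was not called, and its log2 fold change was as low as 0.85. The most abundant ligand genes were *Tgfb1* (−0.37, adjusted *P* = 0.0681, limma) and *Icam1* (0.35, adjusted *P* = 0.0714, limma), which encodes a ligand of LFA-1. Singled out after their values were seen, *Jam2* (0.55), *Jam3* (0.45), and *Col4a2* (0.52) had an adjusted *P* under the threshold in limma and a fold change too small to be called. *Jam2* was called without *Irf1-/-* replicate 2 (0.69), but its adjusted *P* was 0.0659 to 0.160 with any other single library left out. *Col4a2* was called without WT replicate 4 (0.59), but its adjusted *P* reached 0.0803 once *Irf1-/-* replicate 4 was removed, and 0.0503 for WT replicate 3. That of *Jam3* was up to 0.190 with a library left out. *Vcam1*, a ligand of α4 integrins, overlapped between genotypes, at 568 to 935 and 579 to 781 normalized counts (0.16, adjusted *P* = 0.751, limma). *Madcam1*, the ligand of α4β7, had a mean under the filter and at most 20.8 normalized counts in any library.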

How the data were processed

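HSCs of 3 WT and 3 *Irf1-/-* mice were grouped by their labels. The authors amplified cDNA with a SMART-Seq v4 kit, without molecular identifiers, used Trim Galore for trimming, HISAT2 for alignment, and Htseq-count for counting. The submitters' processing notes name mm39. Annotation, strand setting, and versions are not given in the sources used here. The deposited signal is the count per gene divided by 1 size factor per library. Dividing by the smallest step gave whole reads for 100% of values (within 0.01 read).

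limma 3.58.1 in R 4.3.3 was fitted to log2(normalized count + 1). Fold changes of low genes are understated on this scale. edgeR 4.0.16 and DESeq2 1.42.0 were run on recovered reads as alternatives, beside other pseudocounts, filters, scalings, a replicate block, and each library left out. Scripts were tested on simulated data. Figures used matplotlib 3.10.9.

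Named genes are *Irf1*, the 9 integrin genes, called genes of each list or its most abundant up to 3, the 5 profiles nearest to *Itgb7*, and its neighbors. Cell markers and genes stated as singled out were named beside these. Some markers of the lists are not reported here and were left out of their counts and sums. The members and lists were chosen with earlier results of these data known. Libraries of a genotype differed beyond sampling noise (chi-square per gene 16.0 to 30.0). Only the labels and methods show that they are separate mice, and counting error does not cover PCR copies.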

Additional observations from a re-analysis of the deposited data

How the results depend on the processing

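Fitting limma without the trend called 7 genes higher and 33 lower, in place of 167 and 166, and *Itgb7* was then not called (−1.69, adjusted *P* = 0.0858). This was the only one of 17 alternatives under which *Itgb7* lost its call, and its adjusted *P* was between 3.76e-20 (DESeq2) and 0.0858. DESeq2 called 295 genes higher and 209 lower. Without a threshold on the fold change 301 genes were higher and 260 lower. With each library left out in turn, 83 to 304 genes were higher and 105 to 265 lower, and the log2 fold change of *Itgb7* was −1.83 to −1.45. The log2 ratio of *Itgb7* to *Itgb1* was then −1.76 to −1.48, that of *Itgb7* to *Itga4* −1.71 to −1.28, and that of *Itgal* to *Itgb2* −0.22 to 0.15, which turned positive without *Irf1-/-* replicate 3 (0.15) or WT replicate 4 (0.046). The first principal component (32.4% of the variance) did not separate the genotypes, with *Irf1-/-* replicates 2 and 4 and WT replicate 4 on one side and the other 3 libraries on the other. Its cause was not tested.

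With the replicate number as a replicate block, 219 genes were higher and 196 lower, and *Itgb7* stayed at −1.69. Deviations of libraries with the same number correlated at −0.094 (replicate 2), 0.25 (replicate 3), and 0.15 (replicate 4), so the numbers were not taken to pair mice, and not every library correlated best with its own number.

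Some genes that were not called changed sign. After median centring these were *Itga6* (−0.0026), *Itgb3* (−0.0077), and *Tln1* (−0.024), and after quantile normalization *Itgb1* (0.047). With each library left out, log2 fold changes were −0.67 to 0.086 for *Itgal*, −0.075 to 0.020 for *Itgb1*, −0.091 to 0.19 for *Itgb3*, −0.031 to 0.028 for *Tln1*, and −0.021 to 0.080 for *Parvg*. None of these was called.

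With 3 mice a genotype, some 95% CIs leave room for differences larger than the fold change threshold. Among genes not called, these were *Itgal* (−0.96 to 0.28), *Itgb2* (−0.64 to 0.07), and *Itga9* (0.24 to 0.83). The 95% CIs of *Itga4*, *Itga5*, *Itga6*, *Itgav*, and *Itgb1* do not leave such room. Rare chains such as *Itgax*, with 0 to 49.5 normalized counts, could not be compared with precision.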

Other observations

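Tetraspanins and other membrane proteins associate with integrins in the plane of the membrane and affect their clustering and turnover. Of 12 such genes 1 was called higher and 0 lower (0.96% and 0.954% over all genes tested), and 5 did not overlap between genotypes, where 19.9% of all genes tested did not. Their median log2 fold change was −0.036 (−0.099 to 0.0031 with each library left out). At an unadjusted *P* under 0.05 in limma 2 were higher and 2 lower, and edgeR and DESeq2 each called 1 higher and 0 lower. *Cd53*, a tetraspanin of leukocytes, had 1234, 1061, and 964 normalized counts in *Irf1-/-* replicates 2, 3, and 4 and 631, 349, and 474 in the WT replicates. Every *Irf1-/-* library was above every WT library, and the gene rose by 1.20 on the log2 scale (SE 0.19, adjusted *P* = 0.00372, limma). Over the alternatives the adjusted *P* was 2.05e-07 to 0.193, and the call was lost only when limma was fitted without the trend.

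The most abundant genes of this group were *Tspan32* (−0.14, adjusted *P* = 0.511, limma) and *Cd47* (−0.21, adjusted *P* = 0.218, limma), which encodes the integrin-associated protein. *Cd47* had 25049, 25043, and 25134 normalized counts in *Irf1-/-* HSCs and 29489, 30196, and 27371 in WT HSCs. Singled out after their values were seen, the tetraspanin genes *Cd9* and *Cd82* differed in opposite directions, both under the fold change threshold. *Cd9* had 9079, 8979, and 8535 normalized counts in *Irf1-/-* HSCs and 11512, 13280.0, and 11843 in WT HSCs (−0.46, adjusted *P* = 0.0103, limma, and 0.0759 without *Irf1-/-* replicate 4). *Cd82* had 3546, 4073, and 3726 against 2725, 2288, and 2875 (0.53, adjusted *P* = 0.0152, limma), and was called without WT replicate 4 (0.60), while without *Irf1-/-* replicate 3 or 4 or WT replicate 3 its adjusted *P* was 0.0531, 0.0568, and 0.0674. The genotypes did not overlap for either gene.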
